A study of Mus musculus with 2 samples.

Results

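The genes described here are 10 markers by which astrocytes are commonly recognised: Gfap, Vim, S100b, Aldh1l1, Glul, Slc1a2, Slc1a3, Aqp4, Aldoc and Gja1. They were taken as a list of names, with no measured value in the rule, and each was found by its symbol in the table of either genotype. They are 10 of the 16302 genes listed in at least one table, and all 10 were listed in both. Each also passed the minimum used here, 1 FPKM in at least one library, which left 12646 genes, of which 12171 were listed in both tables. FPKM counts the fragments of a gene per kilobase of its transcript and relative to all mapped fragments, so that a level does not depend on gene length or sequencing depth.

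Astrocytes were cultured from the dentate gyrus (DG) of adult wild type (WT) mice and of mice without functional β-arrestin 1 (β-arr1 KO), on a background given as C57BL/6 in the labels and as C57BL/6J in the methods for both groups. The KO is carried by every cell of the animal and not by astrocytes alone. The cultures were grown with serum on Matrigel and shaken to remove looser cells before RNA was taken, and S100β staining served to check them, so that one of the 10 genes was also the marker of purity. The legends of the study describe several mice per group, whose samples cannot be told apart in these libraries. There was 1 library per genotype, so that no ratio below has a replicate check and no test of genotype was possible.

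Astrocytes take up glutamate and potassium released by neurons, turn glutamate into glutamine, and pass ions and small molecules to one another through gap junctions. Their processes surround synapses and end on blood vessels, where the endfeet are rich in water channels. In culture with serum, astrocytes tend to keep an immature or reactive form, which is rich in intermediate filaments. The DG also holds radial glia-like stem cells that share several of these markers, Gfap among them, so that no single gene of the list is proof of a mature astrocyte.

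In brief, 4 of the 10 genes had a ratio of β-arr1 KO vs. WT above 3/2, the limit that the study uses: Aqp4 (1.92), S100b (1.77), Aldoc (1.60) and Slc1a2 (1.58). None was below 2/3. Of all 12646 genes, 17.8% were past these limits, with 9.56% above and 8.28% below, and 14.6% of the 12171 genes listed in both were past them, with 7.90% above and 6.74% below. The study reported a smaller share past the same limits over its own set of genes, and the reason for the difference was not examined. The 6 other members lay within the limits, among them Gfap at 1.02 and Glul, the lowest, at 0.742. These are bulk RNA libraries, in which more cells of a type and more RNA per cell cannot be told apart. The value of Aldoc rests on table rows of unequal length. With each value multiplied by the exonic length of its own row, its ratio was 0.963, a ratio of implied fragments. Its direction then turned and 3 genes were above the limit.

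Sequence upstream of the start is shown for 4 members with different ratios, namely S100b and Aldoc (above the limit), Gfap (close to 1) and Glul (the lowest). Each run holds the 250 bases before the start of the gene in RefSeq on build GRCm38.p6, 5′ to 3′ on the strand of the gene. Capitals mark TTGGC on either strand, the half-site of nuclear factor I (NFI), a family of transcription factors of the astrocyte lineage.
S100b, chr10:76253586-76253835, plus strand: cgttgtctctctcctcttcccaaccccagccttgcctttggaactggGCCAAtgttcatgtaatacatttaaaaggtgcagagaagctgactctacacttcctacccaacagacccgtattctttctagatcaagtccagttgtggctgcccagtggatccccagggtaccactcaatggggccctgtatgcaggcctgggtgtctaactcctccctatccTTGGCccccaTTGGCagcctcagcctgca
Aldoc, chr11:78322823-78323072, plus strand: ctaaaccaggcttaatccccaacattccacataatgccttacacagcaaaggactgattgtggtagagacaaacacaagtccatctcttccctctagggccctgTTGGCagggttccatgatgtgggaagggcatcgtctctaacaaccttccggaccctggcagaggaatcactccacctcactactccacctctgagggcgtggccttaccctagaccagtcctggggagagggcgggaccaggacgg
Glul, chr1:153899679-153899928, plus strand: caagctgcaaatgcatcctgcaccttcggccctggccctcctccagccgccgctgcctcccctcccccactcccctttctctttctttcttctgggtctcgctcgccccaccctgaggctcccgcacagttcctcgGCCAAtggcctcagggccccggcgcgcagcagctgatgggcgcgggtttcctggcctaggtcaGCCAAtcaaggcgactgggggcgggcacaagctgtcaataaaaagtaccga
Gfap, chr11:102897201-102897450, minus strand: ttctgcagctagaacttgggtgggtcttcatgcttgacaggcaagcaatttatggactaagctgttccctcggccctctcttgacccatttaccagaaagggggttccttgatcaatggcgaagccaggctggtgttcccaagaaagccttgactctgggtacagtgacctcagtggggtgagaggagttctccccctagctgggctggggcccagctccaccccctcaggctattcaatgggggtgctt
Of the members, 9 had an entry, with 10 windows in all since Aldoc has 2 listed starts. Aqp4 had none. The Slc1a2 window and the Aldoc window not shown lay inside the measured rows, downstream of where those rows begin, and are counted below. The NFI half-site was present in 5 of the 10 windows, that of Slc1a2 among them, and in 41.5% of all 32851 windows. S100b held 3 matches, at 203, 29 and 19 bases before the start, Glul held 2, at 114 and 51 bases, Aldoc held 1, at 146 bases, and Gfap none. Other motifs were searched in the same way. The core of SOX factor sites, ACAAT, was in 2 of the 10 windows and in 27.7% of all windows. The GC box, GGGCGG, was in 4 of the 10 and in 32.7% of all. The STAT site, TTCNNNGAA, was in 2 of the 10 and in 7.02% of all. The sequence TATAAA was in 2 of the 10, Vim and Slc1a3, and in 12.4% of all. A match is a run of letters and not a measured binding site. The S100b window also bears on the values, since the row of S100b began at the start itself in WT and 168 bases before it, inside the sequence shown, in β-arr1 KO.

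The levels of the 10 genes spanned a wide range in either library. Vim was 1238-fold above Slc1a2 in WT and 910-fold above it in β-arr1 KO. The median of the library was 7.04 FPKM in WT culture and 7.16 FPKM in KO culture. By value, 9 of the 10 genes lay above it in either library, and Slc1a2 lay below it. In WT culture Aqp4 lay at the median, with 7.05 FPKM and an interval of counting error of 6.31 to 7.85 FPKM. Its WT rank was 7697 of 15362 genes, in the top 50.1%, so that its side of the median was not resolved. Vim carried most of the summed level: the other 9 genes summed to 383 FPKM for WT against 405 FPKM for KO.

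**Figure D1:**
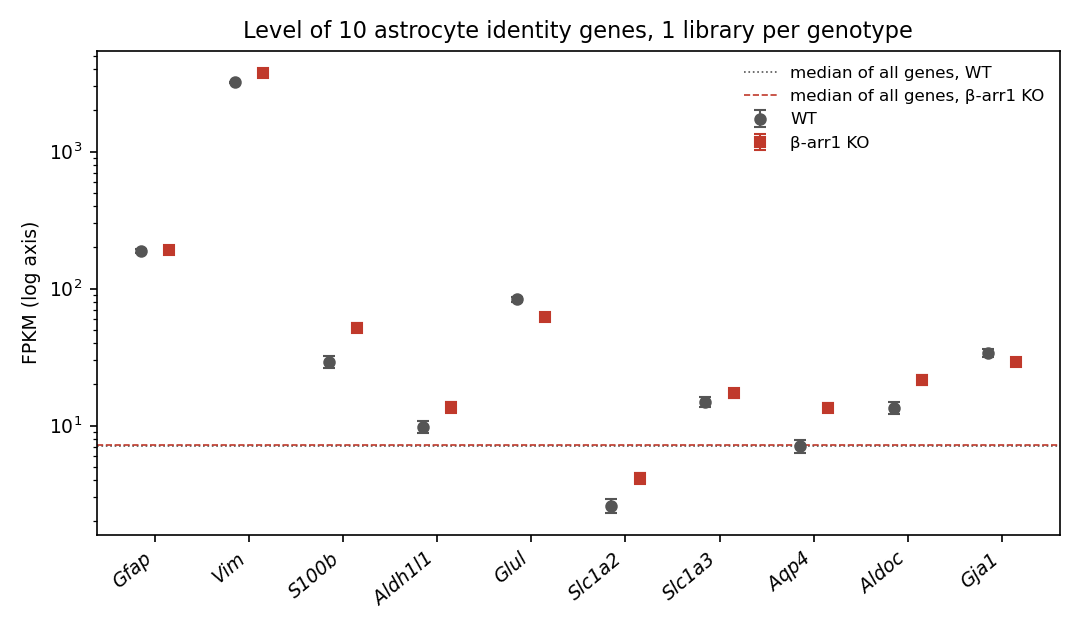
FPKM (log axis) of the 10 genes in the WT library (grey circles) and the β-arr1 KO library (red squares). Bars are 95% intervals of counting error from 1 library each, and the lines are the medians of all genes, 7.04 FPKM and 7.16 FPKM; Vim stands far above the rest and Slc1a2 below both lines.

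From high to low, the order in WT was Vim, Gfap, Glul, Gja1, S100b, Slc1a3, Aldoc, Aldh1l1, Aqp4 and Slc1a2. The counting intervals of neighbours overlapped for Gja1 with S100b and for Slc1a3 with Aldoc, so that these 2 steps of the order were not resolved. In β-arr1 KO, S100b stood above Gja1 and Aldoc above Slc1a3 with intervals that did not overlap, while Aldh1l1 and Aqp4, at 13.6 FPKM and 13.5 FPKM, could not be separated. These intervals hold counting error alone, at an estimated 9.54 M fragments in WT and 9.82 M fragments in β-arr1 KO.

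Gfap and Vim encode the intermediate filaments of the astrocyte cytoskeleton. Gfap (chr11:102748650-102758514 on NCBIM37, minus strand) was 189 (WT) and 192 (KO) FPKM, a ratio of 1.02 (95% counting interval 0.976 to 1.06). It was the only member whose interval included 1. Vim (chr2:13495938-13504453, plus strand) was 3224 FPKM in WT culture and 3745 FPKM in KO culture, a ratio of 1.16 (1.15 to 1.17). The interval is narrow because Vim drew some 62231 and 74396 fragments, and it says nothing of the spread between cultures. By rank within the library, Vim was 5th in WT and 2nd in β-arr1 KO, among 15362 and 15388 genes, and Gfap was 266th and 254th. Gfap per Vim, which does not depend on the scaling of the libraries, went from 0.0585 to 0.0512, a change of 0.876 (0.840 to 0.914, by a normal approximation on the log scale). Of 8 other filament genes of neural cells, 4 were analysed and none was past the limits. The highest was Nes, the filament of neural precursors, with 121 FPKM for WT against 153 FPKM for KO (ratio 1.27).

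S100b encodes a small calcium-binding protein that astrocytes also secrete. Its level was 29.3 (WT) and 51.7 (KO) FPKM, a ratio of 1.77 (1.55 to 2.01), from an estimated 367 and 668 fragments. The interval lay above 3/2 as a whole. S100b moved from rank 2528 to rank 1355, and S100b per Gfap went from 0.155 to 0.270, a change of 1.74 (1.52 to 1.99). The WT row (chr10:75716581-75724064, plus strand) overlapped that of Dip2a, a neighbouring gene at 9.52 FPKM in WT culture and 10.6 FPKM in KO culture, in the WT table only. With the overlapping values summed in each table the ratio was 1.61. When each value was scaled to the exonic bases in its own row, it was 1.97. S100b was above 3/2 in all 8 alternatives that gave a ratio. The 7 other S100 genes examined all lay within the limits. S100a6, the highest of them, was 2247 FPKM for WT against 2173 FPKM for KO (ratio 0.967).

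Aldh1l1 encodes the cytosolic 10-formyltetrahydrofolate dehydrogenase of folate metabolism and is widely used to mark astrocytes. It was 9.75 (WT) and 13.6 (KO) FPKM, a ratio of 1.39 (1.22 to 1.59), so that the interval reached past 3/2 although the ratio did not. The rows (chr6, plus strand, both ending at 90549165) began at 90500791 in WT and at 90500832 in β-arr1 KO. Aldh1l2, the mitochondrial counterpart, was 4.33 FPKM and 4.61 FPKM, and Aldh1l1 per Aldh1l2 went from 2.25 to 2.94, a change of 1.31 (1.04 to 1.64). Of 11 other genes of folate metabolism, 9 were listed in both tables, with 1 above the limits and 1 below and a median log2 ratio of 0.02, against 0.02 over all genes. The one above was Mthfd2l (5.75 FPKM and 8.87 FPKM, ratio 1.54). The one below was Tyms, the thymidylate synthase of dividing cells, with 16.4 FPKM in WT culture and 3.68 FPKM in KO culture (ratio 0.225). Shmt2, a mitochondrial enzyme of serine and glycine exchange and the gene of this list with the highest mean, was 21.2 FPKM and 20.5 FPKM (ratio 0.967). Mthfs (8.90 FPKM) and Shmt1 (1.33 FPKM) were listed in WT alone and so count as past the limits as well. In β-arr1 KO a row of Bcl2a1b overlapped the locus of Mthfs.

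The glutamate cycle is represented by Glul, the glutamine synthetase, and by the uptake carriers Slc1a2 (GLT-1) and Slc1a3 (GLAST). Glul (chr1:155747075-155756844, plus strand) was 83.3 FPKM for WT against 61.8 FPKM for KO, a ratio of 0.742 (0.694 to 0.792). It had the lowest ratio of the 10, within the limits but with an interval away from 1, and its rank went from 760 to 1095.

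Slc1a2 (chr2:102498840-102630941, plus strand) rose past the limit: its level was 2.60 FPKM (WT) and then 4.11 FPKM (KO), giving 1.58 (1.36 to 1.84). It remained the lowest of the 10 genes in both libraries, and its interval reached below 3/2. With a pseudocount of 1 its ratio was 1.42, within the limits. Slc1a3 (chr15:8584124-8660807, minus strand) was 14.9 FPKM in WT culture and 17.2 FPKM in KO culture, a ratio of 1.15 (1.03 to 1.29). GLT-1 is the main carrier of the mature forebrain and GLAST the main one of radial glia and young astrocytes. Slc1a3 was 5.71 times as high as Slc1a2 in WT and 4.17 times as high in β-arr1 KO. Slc1a2 per Slc1a3 changed by 1.37 (1.13 to 1.66). Of 14 other genes of glutamate and glutamine handling, 10 were analysed and listed in both tables, with 2 above 3/2 and none below. These were Slc38a3, a glutamine carrier (8.62 FPKM and 13.5 FPKM, ratio 1.57), and Slc1a1, a carrier mainly of neurons (0.770 FPKM and 1.90 FPKM, ratio 2.47), which is outside the naming rule because of its low level and was picked after its values were seen. In β-arr1 KO alone, the row of Slc38a3 overlapped one of Gnai2. Glud1, glutamate dehydrogenase, was the highest of the list with 67.2 FPKM for WT against 77.6 FPKM for KO (ratio 1.15). Slc1a6, another glutamate carrier, was above Slc1a3 in both libraries, at 37.6 FPKM and 28.2 FPKM (ratio 0.748, within the limits). It was picked after its values were seen, and its row bounds were unequal. Slc1a5 was listed in β-arr1 KO alone (3.85 FPKM) and so counts as past the limits as well.

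Aqp4 (chr18:15547903-15562193, minus strand) encodes the water channel of astrocyte endfeet. It showed the highest ratio of the 10 genes, 1.92 (1.68 to 2.19), with levels of 7.05 FPKM (WT) and 13.5 FPKM (KO), an estimated 333 and 657 fragments and the same row bounds in both tables. Its interval lay above 3/2 as a whole. Aqp4 also moved most in rank, from 7697 to 5232, and Aqp4 per Gfap changed by 1.88 (1.64 to 2.17). Among 11 other aquaporin and dystrophin-associated endfoot genes, 10 were analysed, 2 of them above 3/2 and none below. They were Dmd, dystrophin (12.2 FPKM and 25.1 FPKM, ratio 2.05), and Dtna, α-dystrobrevin (12.9 FPKM and 21.6 FPKM, ratio 1.68). The row bounds of Dtna were unequal in WT and β-arr1 KO, and its ratio was not rescaled. The median log2 ratio of this list was 0.16, and Dag1, dystroglycan and the highest of it, was 107 FPKM and 103 FPKM (ratio 0.957). Dmd is also a muscle gene, and markers of skeletal muscle were among those that differed, as given below with the other cell types.

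Aldoc encodes aldolase C, the brain isoform of a glycolytic enzyme. It was 13.5 (WT) and 21.6 (KO) FPKM, a ratio of 1.60 (1.40 to 1.84). The rows of this gene differed more than those of any other member: the WT row (chr11:78136623-78141224, plus strand) ended 962 bases after the β-arr1 KO row (chr11:78136620-78140262). Annotated exons cover 2574 bases of the former and 1615 bases of the latter. With each value multiplied by the exonic bases in its own row, which gives a ratio of implied fragments, it was 0.963. Neither the direction nor the call then held. This reading applies if each value was divided by the length of its own row and the same transcript was read in both libraries. The length by which the submitted values were divided is not given in the tables. Aldoa, the general aldolase, was 587 FPKM in WT culture and 628 FPKM in KO culture (ratio 1.07). Aldoa was thus 43.6 times and 29.1 times as high as Aldoc, and the change of Aldoc per Aldoa, 1.50 (1.30 to 1.73), carries the same limit.

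Gja1 encodes connexin 43, the main gap junction protein of astrocytes. Gja1 (chr10:56097106-56110225, plus strand) was 34.0 FPKM for WT against 29.4 FPKM for KO, a ratio of 0.862 (0.785 to 0.947), and its rank went from 2103 to 2543. Gjb6, connexin 30, the other connexin typical of astrocytes in the brain, was not listed in WT and was 0.0526 FPKM in β-arr1 KO, so that Gja1 made up nearly all of the pair. Of 11 other connexin, pannexin and scaffold genes, 8 were analysed, with 3 above 3/2 and none below. They included Gja5 (ratio 2.19) and Gja3 (ratio 1.70), both below 4 FPKM and picked after their values were seen. Tjp1, the scaffold protein ZO-1 and the highest of this list, was 27.4 FPKM and 33.9 FPKM (ratio 1.24).

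**Figure D2:**
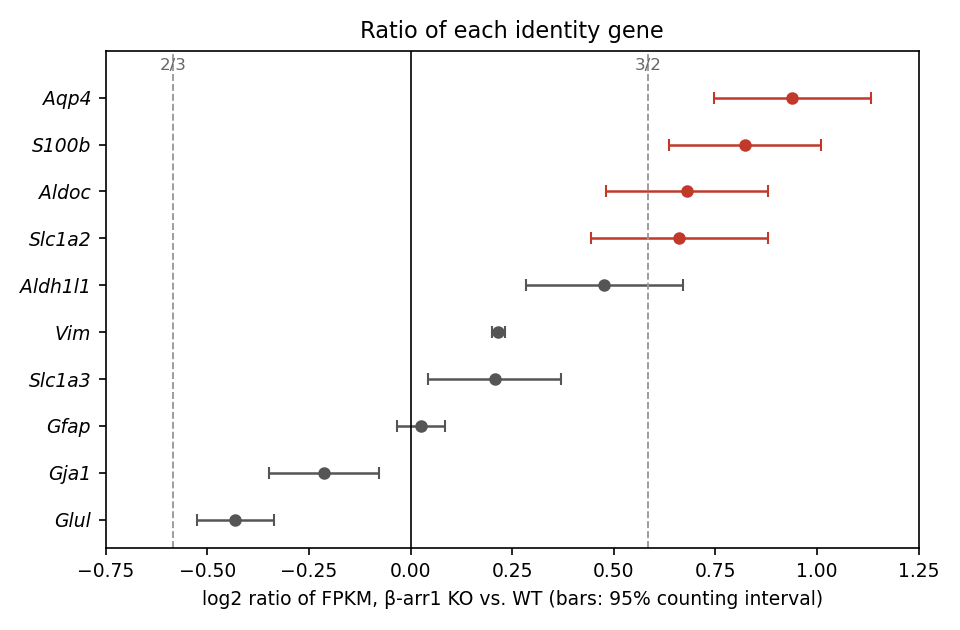
log2 ratio of FPKM in β-arr1 KO vs. WT for each of the 10 genes, sorted, with 95% intervals of counting error. Dashed lines mark 3/2 and 2/3, and the 4 genes in red are above 3/2; the intervals of Aqp4 and S100b lie wholly above it, and that of Gfap includes 0.

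As a group, 8 of the 10 genes were higher and 2 were lower in β-arr1 KO. Over all genes listed in both tables, 6459 were higher and 5711 were lower. The intervals of 9 members left out a ratio of 1, and the share of all genes for which this holds was not computed. Aldoc is among the 8, and its direction turned with values scaled to their own rows. The median log2 ratio was 0.35, against 0.02 over all 12171 genes listed in both tables. It was 0.21 with values scaled to their own rows and 0.22 with a minimum of 5 FPKM, which left out Slc1a2. Only 7 members had the same bounds in both tables, and of these 2 (Slc1a2 and Aqp4) were above 3/2. With limits of 2 and 1/2, no member was past them, and 5.65% of all genes were. By rank, 8 genes moved up and 2 moved down. Of the 4 genes above the limit, in WT S100b stood in the top 16.5% of genes, Aldoc in the top 34.1%, Aqp4 in the top 50.1% and Slc1a2 in the top 68.8%. The 3 highest members in WT, Vim, Gfap and Glul, were all within the limits.

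**Figure D3:**
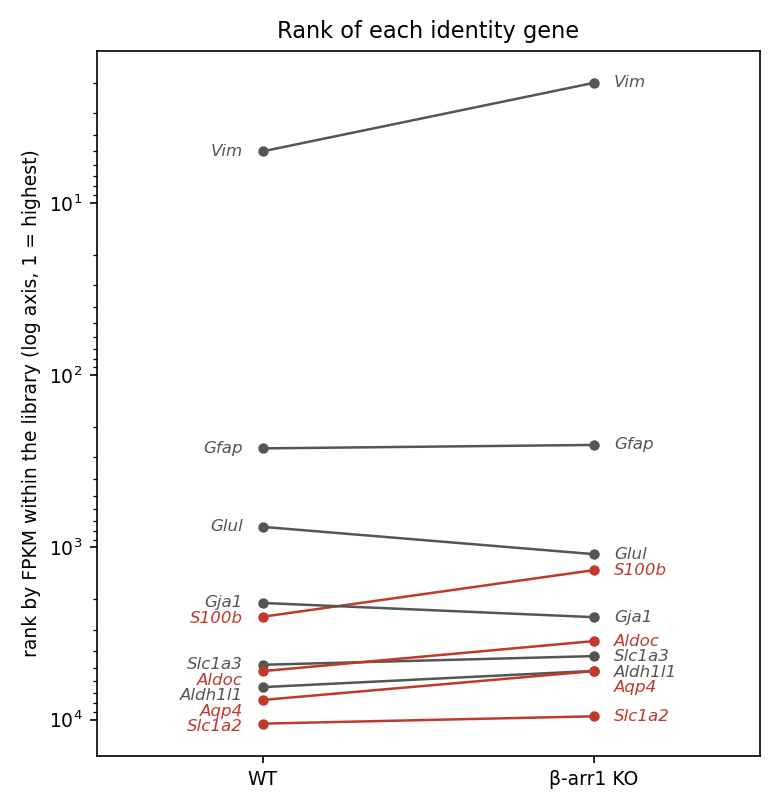
Rank by FPKM (log axis, 1 is the highest) of each gene within its library, joined by a line from WT to β-arr1 KO, with genes above 3/2 in red. The red lines all climb, Glul and Gja1 drop, and the line of S100b crosses that of Gja1.

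Gene by gene, the closest match to a member over the pair of libraries, by the sum of absolute log2 differences, was in most cases not an astrocyte marker. Slc1a2 was closest to Lrrn1 (distance 0.0054, with 2.60 FPKM and 4.12 FPKM), Aqp4 to Sphk1 (0.048), S100b to Sec63 (0.11) and Gfap to Tceb2 (0.018). Aldoc was closest to Dtna (0.065), a gene of the endfoot list. The remaining matches were Tmsb4x for Vim, Lrfn4 for Aldh1l1, Kif1c for Glul, Arhgef5 for Slc1a3 and Glo1 for Gja1. With 2 libraries such a match describes levels alone.

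Beyond the 10 genes, 32 other genes enriched in astrocytes were examined, of which 26 were analysed, all listed in both tables. Of these, 8 were above 3/2 and 1 was below 2/3, beside the 7.90% and 6.74% of all genes given above, and their median log2 ratio was 0.44. The genes above the limit included the potassium channel Kcnj10 (9.60 (WT) and 18.7 (KO) FPKM, ratio 1.95), the secreted matrix protein Sparcl1 (31.3 FPKM and 59.9 FPKM, ratio 1.91) and the membrane protein Mlc1 (26.1 FPKM and 39.7 FPKM, ratio 1.52). The one below it, named after its value was seen, was Itih3 (3.27 FPKM and 1.43 FPKM, ratio 0.436). Cst3, cystatin C and the highest of the list, was 1244 FPKM and 1319 FPKM (ratio 1.06). The summed level of the list went from 2866 FPKM to 3058 FPKM, a ratio of 1.07, since its most abundant genes differed little. The genes of the list not analysed were all below 1 FPKM in both libraries, where a gene not listed took 0. They were Slc7a10 (0.874 FPKM in WT, not listed in KO), Ntsr2 (0.838 FPKM and 0.813 FPKM), Grin2c (0.0443 FPKM and 0.0432 FPKM), Slc6a11 (0.0269 FPKM and 0.0262 FPKM), Gjb6 and Fabp7. In β-arr1 KO a row of Lrp3 overlapped the locus of Slc7a10.

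Transcription factors of the astrocyte lineage gave 3 of 12 analysed genes above 3/2 and none below, with a median log2 ratio of 0.30. They were Rfx4 (3.45 FPKM and 5.98 FPKM, ratio 1.73), Sox2 (24.4 FPKM and 38.8 FPKM, ratio 1.59) and Lhx2 (11.2 FPKM and 17.6 FPKM, ratio 1.57). Id3, an inhibitor of differentiation factors and the highest of the list, was 290 FPKM and 283 FPKM (ratio 0.977). Fabp7 and Hes5, which mark radial glia, were not listed in either table. Rows of other genes overlapping their loci were not looked for, so that their levels are not known.

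**Figure D4:**
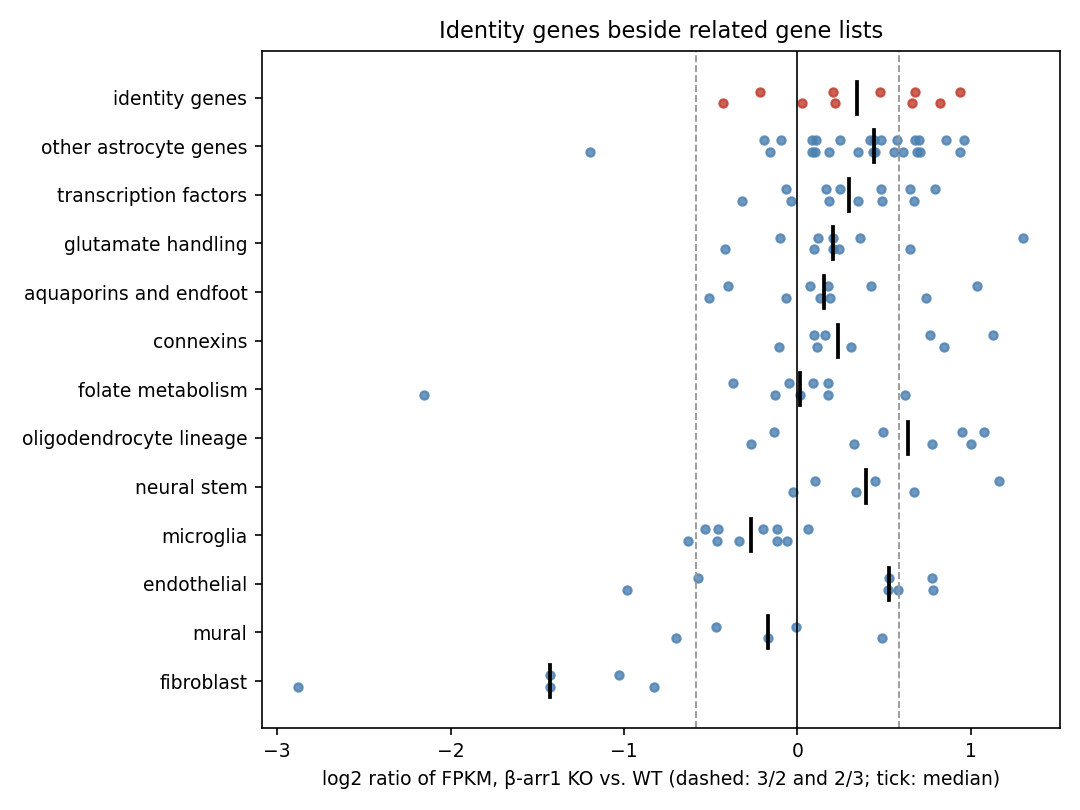
log2 ratio of FPKM in β-arr1 KO vs. WT for the 10 identity genes (red) and for the genes of related lists (blue), 1 point per gene listed in both tables. Black ticks are medians, 0.35 for the identity genes and 0.44 for other astrocyte genes, and dashed lines mark 3/2 and 2/3; fibroblast markers lie to the left of 2/3.

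Markers of other cells differed between the libraries as well. Several had unequal row bounds, among them Olig2, Prom1, Cd68, Tyrobp, Rgs5, Col3a1, Cdh5, Flt1 and Acta1, and their ratios were not rescaled. Sums are over all listed genes of a list, those below the minimum included. The sum for the oligodendrocyte lineage went from 107 FPKM to 153 FPKM. Of 8 markers of this lineage analysed, 4 were above 3/2 and none below. They were Olig2 (6.19 FPKM and 13.1 FPKM, ratio 2.11), Pdgfra (3.12 FPKM and 6.03 FPKM, ratio 1.93), Olig1 (32.6 FPKM and 56.0 FPKM, ratio 1.71) and the low Sox10 (0.907 FPKM and 1.82 FPKM, ratio 2.0). Those 4 are a receptor of precursors and transcription factors of the lineage. The other 4 lay within the limits, among them Cspg4, a marker of precursors and pericytes (24.0 FPKM and 33.8 FPKM, ratio 1.41), and Mbp, a myelin gene (13.9 FPKM and 11.6 FPKM, ratio 0.831). Mog, another myelin gene, was below the minimum: it was not listed in WT and was 0.066 FPKM in the KO library. In WT a row of Zfp57 overlapped the locus of Mog.

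All 5 analysed markers of fibroblasts and meninges were below 2/3, with a sum of 612 FPKM in WT culture and 317 FPKM in KO culture. Col1a1 was the highest (421 FPKM and 237 FPKM, ratio 0.564) and Dcn had the lowest ratio (6.11 FPKM and 0.831 FPKM, ratio 0.136), with Col3a1 (0.490) and Col1a2 (0.371) between them. Of 10 microglia markers, 9 were lower in β-arr1 KO and 1, Cd68, was below 2/3 (185 FPKM and 119 FPKM, ratio 0.645), and the sum went from 982 FPKM to 732 FPKM. Tyrobp, the highest of them, was 317 FPKM and 219 FPKM (ratio 0.690). Mural cell markers summed to 5444 FPKM and 5129 FPKM, with 1 of 5 below 2/3, Rgs5 (5.83 FPKM and 3.58 FPKM, ratio 0.615), and Tagln the highest (2915 FPKM and 2597 FPKM, ratio 0.891). Most of the mural sum was Tagln and Acta2 (2478 FPKM and 2469 FPKM), whereas Myh11 was 40.4 FPKM and 56.6 FPKM and Anpep 4.74 FPKM and 3.43 FPKM. Pdgfrb, a defining mural gene, and Kcnj8 were not listed in either table. Rows of other genes overlapping their loci were not looked for, so that their levels are not known. Endothelial markers summed to 46.8 FPKM and 38.3 FPKM, with 2 of 7 above, Pecam1 (ratio 1.72) and Flt1 (ratio 1.71), and 1 below, Cdh5 (31.8 FPKM and 16.1 FPKM, ratio 0.507). Of these 7 endothelial markers, 5 were higher and 2 lower in β-arr1 KO, with a median log2 ratio of 0.53.

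Of 6 analysed markers of neural stem and precursor cells, 2 were above 3/2, namely Sox2 and Prom1 (1.48 FPKM and 3.31 FPKM, ratio 2.24), and the sum was 163 FPKM and 214 FPKM, with Nes and Sox2 shared with the lists above. Both analysed ependymal markers were above it, Foxj1 (14.7 FPKM and 24.4 FPKM, ratio 1.66) and Rsph1 (4.86 FPKM and 7.58 FPKM, ratio 1.56). Of 5 skeletal muscle markers analysed, 4 were above. All listed genes of this list summed to 36.5 FPKM for WT against 93.5 FPKM for KO, of which Des gave 29.7 FPKM and 41.9 FPKM. Acta1, skeletal muscle actin, was 5.95 FPKM and 28.4 FPKM (ratio 4.78). Actc1 and Tnnt3, both below 1 FPKM in WT, were 8.51 FPKM and 10.1 FPKM in KO culture, while Des, the highest of the list, had a ratio of 1.41. The neuron markers Rbfox3, Snap25 and Slc17a7 were all below 0.3 FPKM in both libraries, whereas Tubb3 was 44.7 FPKM and 59.8 FPKM (ratio 1.34) and Stmn2 was 36.6 FPKM and 43.4 FPKM (ratio 1.18). The symbol Map2 was listed in neither library, but it is also missing from the annotation used here, so that its level is not known. The 10 identity genes thus stood beside abundant markers of fibroblasts and microglia in both cultures, and beside Tagln and Acta2 of the mural list. The part of other cells in the ratios of the 10 genes was not tested.

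As a check of the labels, Arrb1, the gene of β-arrestin 1, was 7.62 (WT) and 2.72 (KO) FPKM, a ratio of 0.358 (0.301 to 0.424). The value is for the whole gene and does not show which exons were read. The tables listed 15417 and 15457 genes, and their values summed to 374406 FPKM and 373279 FPKM. Actb, β-actin, was 2090.0 FPKM in WT culture and 2461 FPKM in KO culture (ratio 1.18), close to the ratio of Vim. Ddx3y, a gene of the Y chromosome, was not listed in WT and was 2.47 FPKM in β-arr1 KO, and the sex of the mice is not in the labels, so that a difference in sex and the genotype cannot be told apart.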

How the data were processed

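RNA-seq was done on cultured DG astrocytes, with 1 library each from WT and β-arr1 KO mice. The authors aligned the read pairs to mm9 with TopHat (1.4.0, per the submitters' processing notes) and ran Cufflinks, whose version is not given in the sources used here, and they deposited 1 FPKM value per gene and library, without counts or confidence bounds. The tables were joined by symbol, and the highest row was kept where several shared one. A gene missing from either table took 0 there and counted as past the limits of 3/2 and 2/3. The analysis kept genes that reached 1 FPKM in WT or KO, and ratios used the FPKM values as deposited, with nothing added. Loci were compared with GENCODE on NCBIM37: adding 1 to each start made it equal to the annotation for 47.2% (WT) and 47.5% (β-arr1 KO) of matched genes, while 3.83% and 3.91% were equal before, and all starts were shifted accordingly.

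Depth was estimated from genes below 0.15 FPKM with 1 transcript longer than 1000 bases, since so low a value stands for 1 to 3 fragments: 69.2% of 416 genes in WT and 69.9% of 435 genes in β-arr1 KO lay within 5% of a step at 9.54 M and 9.82 M fragments. Fragments per gene follow from that depth and the longest protein-coding transcript, less an allowance of 170 bases. The 95% intervals (Clopper-Pearson on the share of fragments, or for pairs an exact conditional interval) cover counting error only and take the same length in both libraries. They do not cover the division of reads between overlapping genes, and a shorter expressed transcript would widen them. With 1 library per genotype there was no test and no p-value.

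The members, gene lists and limits were chosen with earlier results of these data known. Genes named beside the members were those of the pairs, those overlapping a member, Arrb1, the nearest gene to each member, defining markers of other cells at or near 0, and from each list the gene with the highest mean and up to 4 genes past the limits with at least 5 FPKM in the higher library, from both ends of the ratios. Sox10, Prom1, Stmn2, Mbp, Cspg4, Actb and Ddx3y, and the genes said in the text to be so, were picked after their values were seen. So were Acta2, Myh11, Anpep, Mthfs, Shmt1, Slc1a5, Slc7a10, Ntsr2, Slc6a11 and Grin2c. Not every gene or pair chosen by this rule is reported here. Alternatives were pseudocounts of 0.1 and 1, 3 scalings, other limits and minimums, summed rows and loci, and members with the same bounds. Several genes of the other lists also had unequal row bounds, such as Dtna, Lhx2 and Itih3. Their ratios, and the counts and medians of those lists, were not rescaled. Scaling to the exonic bases of each row was chosen after seeing the data and was done for the members alone. It multiplied each value by those bases, with row bases beyond the annotated ends added, less the allowance. The result is a ratio of implied fragments. Promoter windows are from RefSeq on GRCm38.p6, and the other coordinates count from 1 on NCBIM37. Scripts ran on Python 3.11.15 (pandas 2.3.3, numpy 2.4.6, matplotlib 3.10.9, scipy 1.17.1).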

Additional observations from a re-analysis of the deposited data

How the results depend on the processing

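The count of 4 members above 3/2 became 0 with limits of 2 and 1/2, 2 among the 7 members whose bounds were equal, and 3 each with a pseudocount of 1 (Slc1a2 at 1.42), with a minimum of 5 FPKM (Slc1a2 left out) and with values scaled to the exonic bases of each row. The last setting turned the direction of Aldoc, to 0.963, and moved the median log2 ratio of the members from 0.35 to 0.21. A minimum of 5 FPKM gave a median of 0.22. It was 0.34 and 0.33 with pseudocounts of 0.1 and 1, 0.33 with the libraries rescaled to a median ratio of 1 and 0.32 with the same upper quartile, and above 0 in each case. The scalings moved all genes by between -0.02 and 0.0044 (log2) and changed no call of a member. Of 80 ratios of members under these alternatives, 77 stayed within the counting interval of the reported one, Vim left its narrow interval under 2 scalings (1.15 and 1.14), and Aldoc was the only reversal. All 14 alternative values of the pairs stayed within their intervals. Ranks moved in 26 of 40 cases, which follows from ranking fewer genes. No paired analysis was possible because the labels give no replicate numbers and each genotype has 1 library. At this depth the counting intervals of Aldoc and Slc1a2 (ratios of 1.60 and 1.58) reach below 3/2 and that of Aldh1l1 (1.39) reaches above it, and the spread between cultures is unknown for all 10 genes.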
